A study of Mus musculus with 12 samples.

Results

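The genes described here encode 3 peptide hormone systems of the vessel wall in the mouse heart. They are the endothelin genes Edn1, Ece1, Ednra and Ednrb, the angiotensin genes Agt, Ace and Agtr1a, and the adrenomedullin genes Adm and Calcrl. They were chosen by name, and all 9 were found among the 39210 genes of the count table and all 9 passed the filter on low counts. Hypoxia was associated with higher Ace and Edn1, slightly higher Ece1 and lower Agtr1a when both sexes were averaged. The averaged call of Ace held in every alternative run, whereas that of Ece1 was lost on leaving out any one of 9 of the 12 libraries. Those of Edn1 and Agtr1a held on leaving out any one library, but not in every alternative. The endothelin receptor genes Ednra and Ednrb, the angiotensinogen gene Agt and the adrenomedullin genes Adm and Calcrl did not pass the test.

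Strand-specific mRNA sequencing was carried out on frozen ventricles of C57BL/6 mice, with no transgene or mutation named for any group. The 12 libraries formed 4 groups of 3, namely males in hypoxia, males in normoxia, females in hypoxia and females in normoxia. Hypoxic mice had their chamber oxygen reduced in daily steps of 1% until it reached 7% after 14 days, and then stayed at that level for 2 weeks, whereas normoxic mice spent 4 weeks at the 20.9% oxygen of room air. The labels give no age and do not say which ventricle was used. Nor do they tie each library to its own animal, and the p-values therefore reflect the scatter among libraries, part of which may be technical.

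Endothelin-1 is a vasoconstrictor peptide made mainly by endothelial cells. Its precursor is cut to the active peptide by endothelin-converting enzyme (Ece1), and it acts on the receptors encoded by Ednra, found on smooth muscle and cardiac muscle cells, and Ednrb, which on endothelium also clears the peptide. Angiotensinogen (Agt) is cut by renin to angiotensin I and then by angiotensin-converting enzyme (Ace), a protein of the endothelial surface, to angiotensin II, which acts on the receptor encoded by Agtr1a. Adrenomedullin (Adm) is a vasodilator and a known target of hypoxia-inducible factors, and its receptor is the protein of Calcrl paired with a RAMP protein (receptor activity-modifying protein).

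The reactions catalysed by Ece1 and Ace can be read in the coding sequences of the precursors. The stretches below are codons 53 to 73 of the 202 codons of Edn1, which encode mature endothelin-1, and codons 30 to 39 of the 482 codons of Agt, which encode angiotensin I, both from the GENCODE M21 transcripts. Capitals mark the last codon of endothelin-1, after which the Ece1 enzyme cuts, and the 2 codons whose residues the Ace enzyme removes.
Edn1: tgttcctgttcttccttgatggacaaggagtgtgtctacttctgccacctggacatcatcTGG
Agt: gaccgcgtatacatccaccccttcCATCTC

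The 250 bases before the start are shown for 3 genes, Edn1 and Ace because they moved most and Adm because it is a known hypoxia target. They come from RefSeq (build GRCm38.p6) and lie at chr13:42301226-42301475 for Edn1, chr11:105967698-105967947 for the first of the 2 Ace windows and chr7:110627407-110627656 for Adm, all on the + strand. Capitals mark the core letters recognised by hypoxia-inducible factors (HIF core, ACGTG or GCGTG, searched on both strands).
Edn1 promoter: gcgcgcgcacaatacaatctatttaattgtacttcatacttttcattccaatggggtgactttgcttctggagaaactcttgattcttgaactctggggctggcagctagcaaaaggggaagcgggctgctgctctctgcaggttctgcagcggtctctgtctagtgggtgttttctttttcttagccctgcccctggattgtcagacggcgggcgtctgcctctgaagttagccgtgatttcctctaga
Ace promoter: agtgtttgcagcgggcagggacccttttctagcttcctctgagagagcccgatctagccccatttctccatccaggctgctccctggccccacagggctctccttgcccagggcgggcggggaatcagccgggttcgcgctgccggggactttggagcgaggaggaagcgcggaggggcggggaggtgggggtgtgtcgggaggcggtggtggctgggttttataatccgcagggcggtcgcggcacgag
Adm promoter: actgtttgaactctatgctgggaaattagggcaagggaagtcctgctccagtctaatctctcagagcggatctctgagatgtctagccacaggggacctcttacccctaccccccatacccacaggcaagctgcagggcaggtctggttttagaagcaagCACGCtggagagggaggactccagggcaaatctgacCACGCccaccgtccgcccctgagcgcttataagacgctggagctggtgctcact

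The Adm window held 2 matches of the HIF core, at -90 to -86 and -54 to -50 relative to the start, both as GCGTG on the minus strand. No match lay in the Edn1 window or in either Ace window. RefSeq windows were found for 8 of the 9 genes, 12 windows in all, and 5 of these windows, of Ednrb, Ece1 and Adm, held the HIF core. It is a common string, present in 38.6% of the 32851 mouse windows of the same length. The TATA box letters TATAAA (both strands) were found at -30 to -25 in the Agt window and, on the minus strand, at -31 to -26 in the first Ace window, and they occurred in 12.4% of all windows. The letters TGANTCA (AP-1) and GATAA (GATA), held by 6.75% and 22.6% of all windows, were in none of the 12 windows. Each match describes the letters of a window and does not show that a factor binds there. A window without a match says nothing of sequence outside its 250 bases.

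Library totals ranged from 14915830 to 19397851 estimated counts. Levels below are CPM (counts scaled to a common library size corrected by TMM), and fold changes are log2 values, hypoxia over normoxia, with a standard error from a fit to all 12 libraries. Red cell transcripts differed with oxygen, since haemoglobin genes held 0.721% to 1.39% of counts in hypoxia libraries and 0.146% to 0.210% in normoxia libraries, and mitochondrially encoded genes held 15.8% to 23.1% in hypoxia and 24.5% to 29.3% in normoxia. Male hypoxia libraries 2 and 3 stood apart in atrial markers, with a mean log2 CPM over 6 atrial genes of 4.24 or more, against at most 1.51 in the other libraries. They also stood apart in adipocyte markers, whose summed level was 22.4 and 16.9 CPM in them, against at most 1.55 CPM elsewhere. Plin1 was at 0 in all libraries. Liver markers summed to 15.8 and 12.5 CPM in them, against at most 5.98 CPM elsewhere, but Ahsg alone held 14.5 and 11.8 CPM of this. By mean log2 CPM of the liver list they did not stand apart. They were at -0.58 and -1.14, against -1.04 and -0.58 in female normoxia libraries 2 and 3. The part of these markers in the results was not tested. Female normoxia library 3 stood apart in immediate early genes, with a mean log2 CPM of 5.01, against at most 3.30 elsewhere. Results that rest on these libraries are given with and without them. Female hypoxia library 1 also differed from libraries 2 and 3 of its group. Its fibroblast markers summed to 825 CPM, against 1470 and 1415 CPM. Its ventricular muscle markers summed to 71270 CPM, against 47099 and 48888 CPM. It was left out only where each library was left out in turn.

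Averaged over both sexes, 4 of the 9 genes passed the threshold of an adjusted p under 0.05, with Edn1, Ece1 and Ace higher and Agtr1a lower in hypoxia. Of all 13960 genes tested, 27.9% passed in the same comparison, 15.0% higher and 12.9% lower. In males 2 of the 9 passed, Edn1 and Ace, both higher, beside 15.6% of all genes (8.47% higher and 7.10% lower). In females 2 passed, Ace higher and Agtr1a lower, beside 5.99% of all genes (3.97% higher and 2.02% lower). The median log2 fold change of the 9 genes was 0.25 averaged over sexes, and that of all genes was -0.01.

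**Figure D1:**
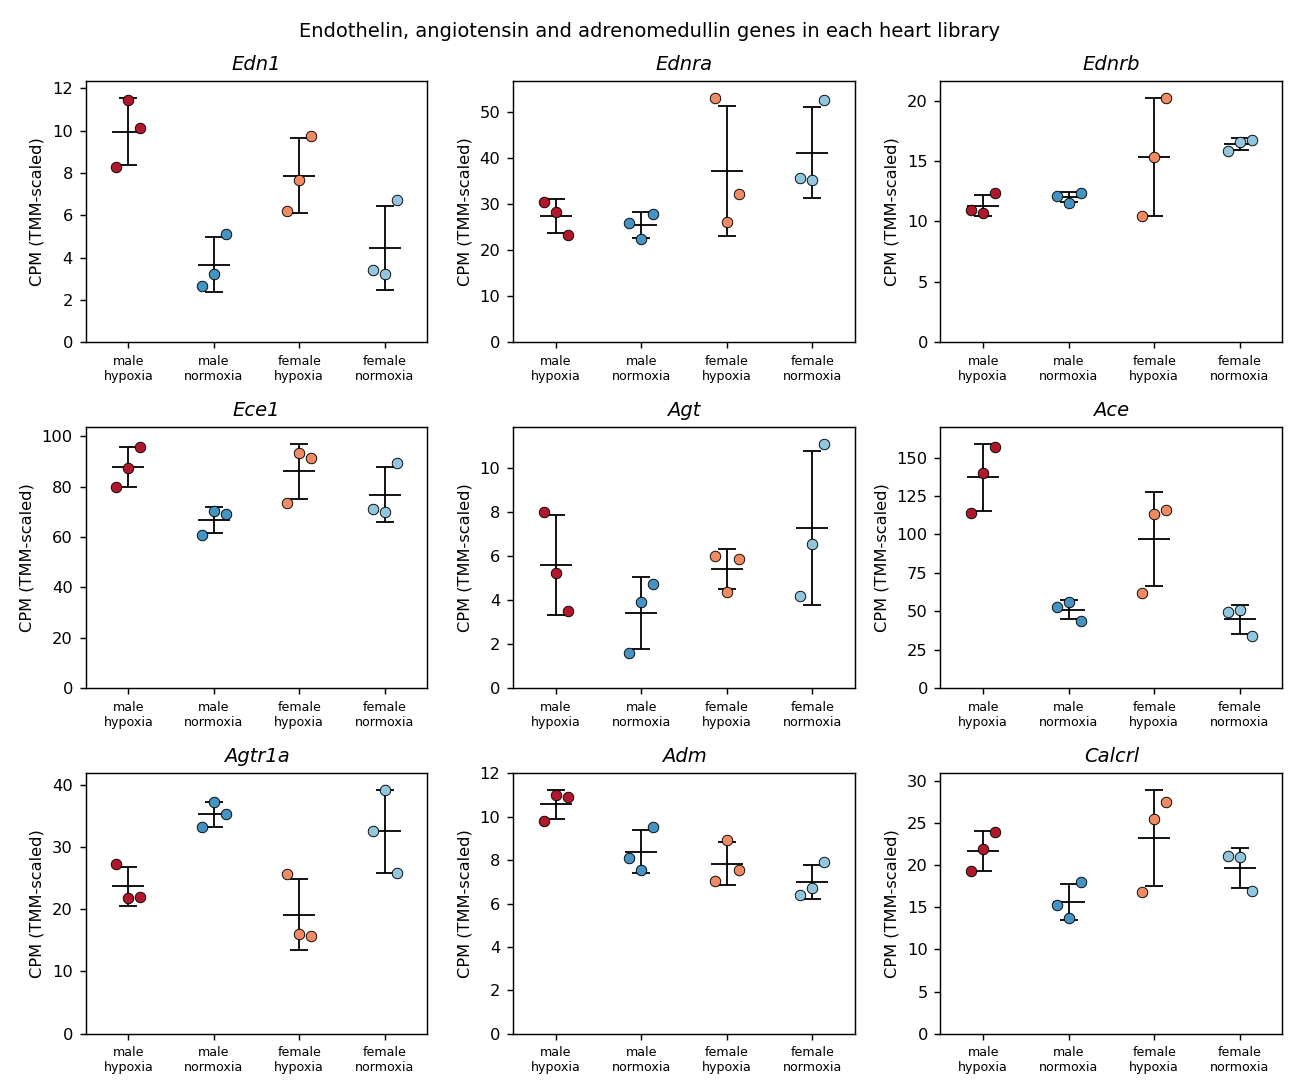
CPM of each gene in every library (points), with the group mean and SD (bars, n = 3 per group). Hypoxia libraries lie above normoxia libraries of the same sex without overlap for Ace in both sexes and for Edn1 in males, and below them for Agtr1a in both sexes.

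Edn1 (ENSMUSG00000021367), the precursor gene of endothelin-1, was at 8.28, 11.4 and 10.1 CPM in hypoxic males, against 2.64, 3.21 and 5.12 CPM in normoxic males. In females it was at 6.22, 7.67 and 9.73 CPM in hypoxia, against 3.41, 3.22 and 6.72 CPM in normoxia. All hypoxic male libraries were above all normoxic male libraries, whereas in females normoxia library 3 lay above hypoxia library 1. The log2 fold change was 1.14 ± 0.23 (SE) averaged over sexes (adjusted p = 0.0046) and 1.45 ± 0.32 in males (adjusted p = 0.0146). In females it was 0.82 ± 0.32 (adjusted p = 0.139), and without normoxia library 3 it was 1.25 (adjusted p = 0.0351). In tissue libraries such as these, fewer cells of a type and less RNA per cell cannot be told apart.

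The averaged rise of Edn1 had an adjusted p of 0.0599 (log2 fold change 1.00) without male hypoxia libraries 2 and 3, and of 0.0148 (1.21) when female normoxia library 3 was left out as well. The male call was also lost on leaving out hypoxia library 2 (adjusted p = 0.0533), normoxia library 1 (adjusted p = 0.0636) or normoxia library 2 (adjusted p = 0.0528). Of the other endothelin genes, Edn3, encoding endothelin-3, ranged from 0.728 to 2.96 CPM over the 12 libraries, and Edn2, encoding endothelin-2, did not exceed 0.104 CPM.

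Agt (ENSMUSG00000031980), which is made mainly by the liver and at a low level in the heart, had the largest standard error of the 9 genes. It was at 8.01, 5.24 and 3.52 CPM in hypoxic males and 1.57, 3.92 and 4.73 CPM in normoxic males. In females the values were 5.98, 4.38 and 5.88 CPM in hypoxia and 4.19, 6.55 and 11.1 CPM in normoxia. The groups overlapped in both sexes. The log2 fold change was 0.71 ± 0.44 in males (adjusted p = 0.293) and -0.43 ± 0.43 in females (adjusted p = 0.577), and neither passed the test. The difference between the sexes did not pass either (female minus male effect -1.13 ± 0.62, adjusted p = 0.757). Renin itself (Ren1), the first enzyme of the cascade, had no counts in 11 of the 12 libraries and 0.0477 CPM in the other.

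Adm (ENSMUSG00000030790) was at 9.80, 11.01 and 10.9 CPM in hypoxic males, against 8.11, 7.56 and 9.52 CPM in normoxic males. It was at 7.04, 8.93 and 7.55 CPM in hypoxic females, against 6.38, 6.73 and 7.89 CPM in normoxic females. The male groups did not overlap, although by a small margin, and the female groups did. The log2 fold change was 0.25 ± 0.10 averaged over sexes (adjusted p = 0.0938), 0.33 ± 0.15 in males (adjusted p = 0.137) and 0.16 ± 0.15 in females (adjusted p = 0.523). None of these 3 values from the fit to all libraries passed the test. With each of the 12 libraries left out in turn, the averaged value passed narrowly without female normoxia library 3 (0.30, adjusted p = 0.0490). It did not pass in the other 11 fits.

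Ece1 (ENSMUSG00000057530), the endothelin-converting enzyme gene, was at 80.1, 87.6 and 95.9 CPM in hypoxic males, against 60.7, 70.2 and 69.1 CPM in normoxic males. In females it was at 73.6, 93.5 and 91.3 CPM in hypoxia and 71.0, 70.1 and 89.6 CPM in normoxia. The male groups did not overlap and the female groups did. The averaged log2 fold change of 0.28 ± 0.09 passed narrowly (adjusted p = 0.0395), and in males it was 0.40 ± 0.13 (adjusted p = 0.0586). The averaged call was lost on leaving out any one of 9 of the 12 libraries, where the adjusted p ran from 0.0548 to 0.09695. It was also lost with an offset for transcript length (0.51, adjusted p = 0.320) and in a limma fit to TPM, abundances corrected for transcript length and library size (0.89, adjusted p = 0.0677).

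Ace (ENSMUSG00000020681) had the largest averaged fold change of the 9 genes. It was at 114.0, 140.3 and 157 CPM in hypoxic males, against 53.0, 55.9 and 43.8 CPM in normoxic males. Hypoxic females had 61.8, 113 and 116 CPM, against 49.5, 50.8 and 33.7 CPM in normoxic females. Each hypoxia library was above each normoxia library in both sexes, although female hypoxia library 1 stood closer to the normoxia libraries than to the other libraries of its group. Averaged over sexes the log2 fold change was 1.27 ± 0.17 (adjusted p = 0.00068), in males 1.43 ± 0.24 (adjusted p = 0.0049) and in females 1.12 ± 0.24 (adjusted p = 0.0261). Without male hypoxia libraries 2 and 3 the averaged value was 1.14 and still passed (adjusted p = 0.0147), while the male value of 1.16 did not (adjusted p = 0.180). The female call was lost without hypoxia library 2 or 3 or normoxia library 1 or 2, with adjusted p-values of 0.0562 to 0.128.

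The receptor genes of the endothelin system did not pass the test in any hypoxia comparison. Ednra (ENSMUSG00000031616) was at 30.4, 28.3 and 23.3 CPM in hypoxic males and 25.8, 22.4 and 27.9 CPM in normoxic males, and at 53.0, 26.1 and 32.3 CPM in hypoxic females and 35.7, 35.1 and 52.6 CPM in normoxic females. The libraries of hypoxia and normoxia overlapped in both sexes. The averaged log2 fold change was -0.02 ± 0.17 (adjusted p = 0.938).

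Ednrb (ENSMUSG00000022122) was at 10.9, 10.7 and 12.3 CPM in hypoxic males and 12.1, 11.5 and 12.4 CPM in normoxic males, with 10.4, 15.3 and 20.2 CPM in hypoxic females and 15.8, 16.5 and 16.8 CPM in normoxic females. The 3 female hypoxia libraries differed from each other more than the group means did. The averaged log2 fold change was -0.09 ± 0.13 (adjusted p = 0.646). On TPM values, the log2 ratio of Ednra to Ednrb was 1.42 ± 0.29 in hypoxic males, 1.23 ± 0.10 in normoxic males, 1.43 ± 0.92 in hypoxic females and 1.45 ± 0.28 in normoxic females (SD, n = 3 each). The hypoxia minus normoxia difference was 0.09 (exact two-sided permutation within sex, p = 0.815 before and after adjustment over 3 ratios), and it was -0.18 without female hypoxia library 1.

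Agtr1a (ENSMUSG00000049115), the main angiotensin II receptor gene of the mouse heart, was the 1 gene of the 9 that fell. It was at 27.2, 21.8 and 21.9 CPM in hypoxic males, against 33.3, 37.2 and 35.2 CPM in normoxic males. In hypoxic females it was at 25.7, 16.0 and 15.6 CPM, against 32.5, 39.2 and 25.8 CPM in normoxic females. No hypoxia library reached a normoxia library of its sex, but female hypoxia library 1 and female normoxia library 3 were almost equal. The log2 fold change was -0.67 ± 0.14 averaged over sexes (adjusted p = 0.0057), -0.58 ± 0.20 in males (adjusted p = 0.0696) and -0.77 ± 0.20 in females (adjusted p = 0.0454). Without male hypoxia libraries 2 and 3 the averaged value was -0.57 (adjusted p = 0.0864), and with female normoxia library 3 left out as well it was -0.64 (adjusted p = 0.0396). The female call was lost on leaving out any one of 10 of the 12 libraries, with adjusted p-values of 0.0519 to 0.198. Agtr1b, a near-identical paralog whose reads the quantification could share with Agtr1a, did not exceed 0.102 CPM, and Agtr2, encoding the type 2 receptor, did not exceed 0.0544 CPM.

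Calcrl (ENSMUSG00000059588), encoding the receptor core shared by adrenomedullin and calcitonin gene-related peptide, was at 19.3, 21.9 and 23.9 CPM in hypoxic males, against 15.3, 13.7 and 17.9 CPM in normoxic males. It was at 16.8, 25.5 and 27.5 CPM in hypoxic females, against 21.1, 20.99 and 16.9 CPM in normoxic females. The male groups did not overlap, and female hypoxia library 1 was the lowest of all 6 female libraries. The averaged log2 fold change of 0.36 ± 0.13 missed the threshold (adjusted p = 0.0577). With each of the 12 libraries left out in turn, it passed only without female hypoxia library 1 (0.46, adjusted p = 0.0065). It did not pass in the other 11 fits.

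**Figure D2:**
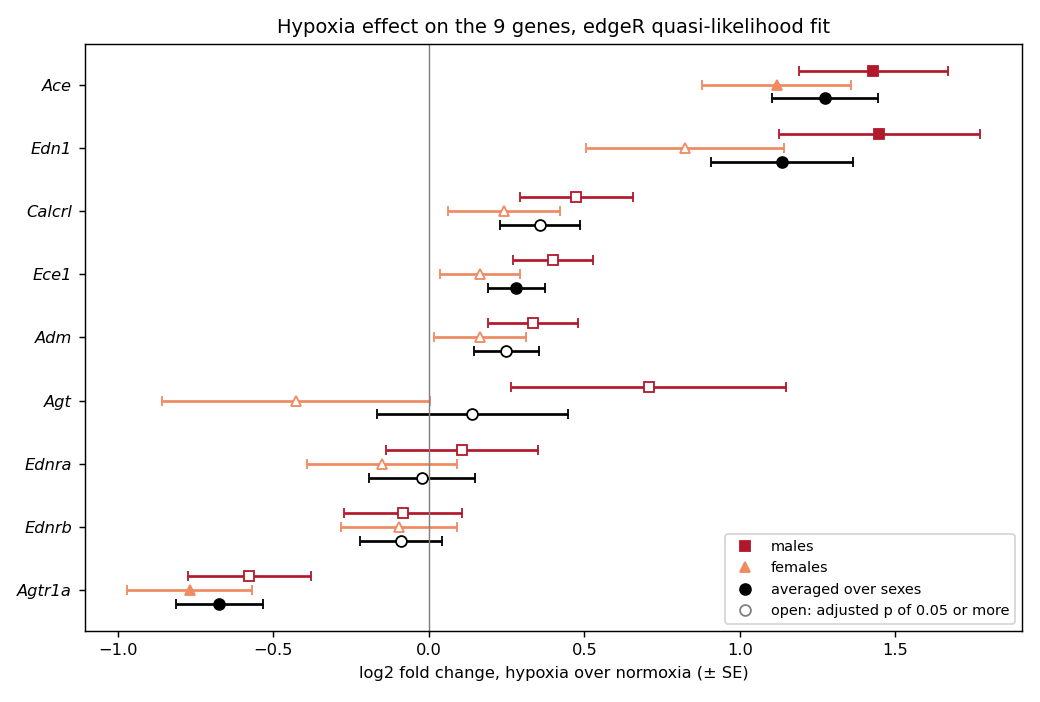
Log2 fold change of hypoxia over normoxia with its SE for the 9 genes, in males (squares), females (triangles) and averaged over sexes (circles), from edgeR's quasi-likelihood fit with filled symbols for an adjusted p under 0.05. Ace and Edn1 lie farthest above 0, between 0.82 and 1.45, and Agtr1a lies below 0 in each comparison.

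Counted by separation of the libraries, 6 of the 9 genes had hypoxia and normoxia values that did not overlap in males, namely Edn1, Ece1, Ace, Adm and Calcrl higher and Agtr1a lower. The share among all tested genes was 41.3%. In females 2 of 9 did not overlap, Ace and Agtr1a, beside 25.9% of all genes. Both of these were separated in the same direction in males and females, as were 14.7% of all genes.

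No difference in the hypoxia effect between females and males passed the test for any of the 9 genes. By edgeR, 0 of 9 passed the test of the female minus male effect, 0 had an unadjusted p under 0.05, and DESeq2 and limma voom also called 0, while 0.00716% of all genes passed by edgeR. Within an oxygen level, females and males differed past the threshold for 0 of 9 genes in hypoxia and 0 of 9 in normoxia, by edgeR, DESeq2 and limma voom alike. The shares of all genes were 0.150% and 0.0716% by edgeR. Unadjusted p-values under 0.05 were found for 2 of the 9 genes in hypoxia and 3 in normoxia. Among the 13960 genes tested, 1345 had one in hypoxia, 1018 in normoxia and 948 for the female minus male effect. In normoxia every female library was above every male library for Ednra (log2 fold change, females over males, 0.70 ± 0.24, adjusted p = 0.651) and Ednrb (0.45 ± 0.19, adjusted p = 0.676). In hypoxia every female library was below every male library for Adm (-0.43 ± 0.15, adjusted p = 0.343). The share of all genes with the sexes separated in this way was not computed.

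Levels can be compared between genes on the TPM scale, which corrects for transcript length. Ace averaged 27.4 ± 7.74 TPM in hypoxic males, 7.16 ± 0.85 TPM in normoxic males, 18.5 ± 7.87 TPM in hypoxic females and 7.11 ± 1.99 TPM in normoxic females (SD, n = 3 each). It ranked 1 among the 9 genes in hypoxic males, 2 in hypoxic females and 3 in both normoxia groups. Edn1 ranked 9 in both normoxia groups, at 1.03 ± 0.35 TPM in males and 1.36 ± 0.56 TPM in females, and 7 in both hypoxia groups, at 3.804 ± 1.06 TPM in males and 2.84 ± 0.85 TPM in females.

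Agtr1a ranked 3 in hypoxic males at 8.84 ± 0.50 TPM, against 2 in normoxic males at 10.05 ± 0.63 TPM, and 4 in hypoxic females at 6.70 ± 1.32 TPM, against 2 in normoxic females at 10.1 ± 2.10 TPM. In normoxic females Agtr1a, Ace and Ednra were neighbours whose libraries overlapped, as did those of Calcrl, Agt and Ednrb. In normoxic males Ace lay clear of Agtr1a above it and Adm below it. In hypoxic males Ace and Ece1 overlapped each other and were clear of Agtr1a, which was clear of Adm, and Calcrl, Edn1, Agt and Ednrb overlapped from neighbour to neighbour. In hypoxic females the order had 1 clear step, between Agtr1a and Adm. Ece1 had the highest mean in 3 of the 4 groups, but its average transcript length in the table ranged from 1262 to 4566 bases between libraries, so that its TPM is less certain than its count. Lengths were constant for Edn1 (1889 bases) and Agt (1641 bases). Deposited TPM values also run higher in hypoxia as a whole, with a median log2 fold change of 0.29 over all tested genes, a shift that leaves the ranks within a library untouched.

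Endothelial cells are the known main source of several of these transcripts, and endothelial markers also moved. Of 12 endothelial markers, all tested, 8 were higher and 0 lower in hypoxia averaged over sexes, with a median log2 fold change of 0.45. Beside this and each list below, 15.0% of all genes tested were called higher and 12.9% lower in the same comparison. Their summed level ranged from 1728 to 2077 CPM in hypoxic males, 1118 to 1348 CPM in normoxic males, 1743 to 2240 CPM in hypoxic females and 1270 to 1597 CPM in normoxic females, with none of the 12 at 0. Among the other lists, 3 of 7 pericyte markers were higher and 1 lower, 3 of 6 smooth muscle markers, 5 of 8 fibroblast markers and 3 of 7 macrophage markers (median 0.42) were higher with 0 lower in each, and 2 of 8 ventricular muscle markers were lower. The atrial list had 3 higher and 1 lower of 4 tested (6 listed), with a summed level of 501 to 1696 CPM in hypoxic males, 93.0 to 150.5 CPM in normoxic males, 193 to 1059 CPM in hypoxic females and 128 to 276 CPM in normoxic females. Most of that sum was Nppa, at 485 CPM in male hypoxia library 1 and 1046 CPM in female hypoxia library 3. Myl7 was at 0.26 and 0.78 CPM in those libraries, against 57.9 and 54.1 CPM in male hypoxia libraries 2 and 3. Lung epithelial markers summed to at most 0.474 CPM in any library, with Sftpa1 at 0 in all, and no gene of that list could be tested. The part of these markers in the results above was not tested.

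Set against the mean log2 CPM of the 12 endothelial markers in the same library, Edn1 and Ace had higher means in hypoxia. In females the hypoxia and normoxia libraries overlapped for both genes. What accounts for these differences was not tested. For Edn1 the difference between hypoxia and normoxia was 0.64 (0.94 in males and 0.34 in females), and for Ace it was 0.73 (0.90 in males and 0.56 in females). Ednrb was lower relative to these markers, by -0.64 (-0.61 in males and -0.67 in females), and so was Ece1, by -0.24 (-0.13 in males and -0.36 in females). The averaged log2 fold changes of these genes themselves were -0.09 ± 0.13 for Ednrb and 0.28 ± 0.09 for Ece1. Their negative values here therefore hold the rise of the markers that were subtracted, and do not show a fall of either gene. Edn1, Ace, Ednrb and Ece1 each had an adjusted p of 0.0188 over 5 genes by the exact two-sided permutation test within sex, and Calcrl, at -0.18, did not pass (adjusted p = 0.23, permutation). Without male hypoxia libraries 2 and 3 the values of Edn1 (0.53) and Ace (0.62) no longer passed (adjusted p = 0.0781 each, permutation), with fewer permutations to draw on. Ece1 lost its call when the median of the markers took the place of their mean (-0.13, adjusted p = 0.138, permutation). Edn1, at 0.53, did not pass against Pecam1, Cdh5 and Tie1 alone.

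**Figure D3:**
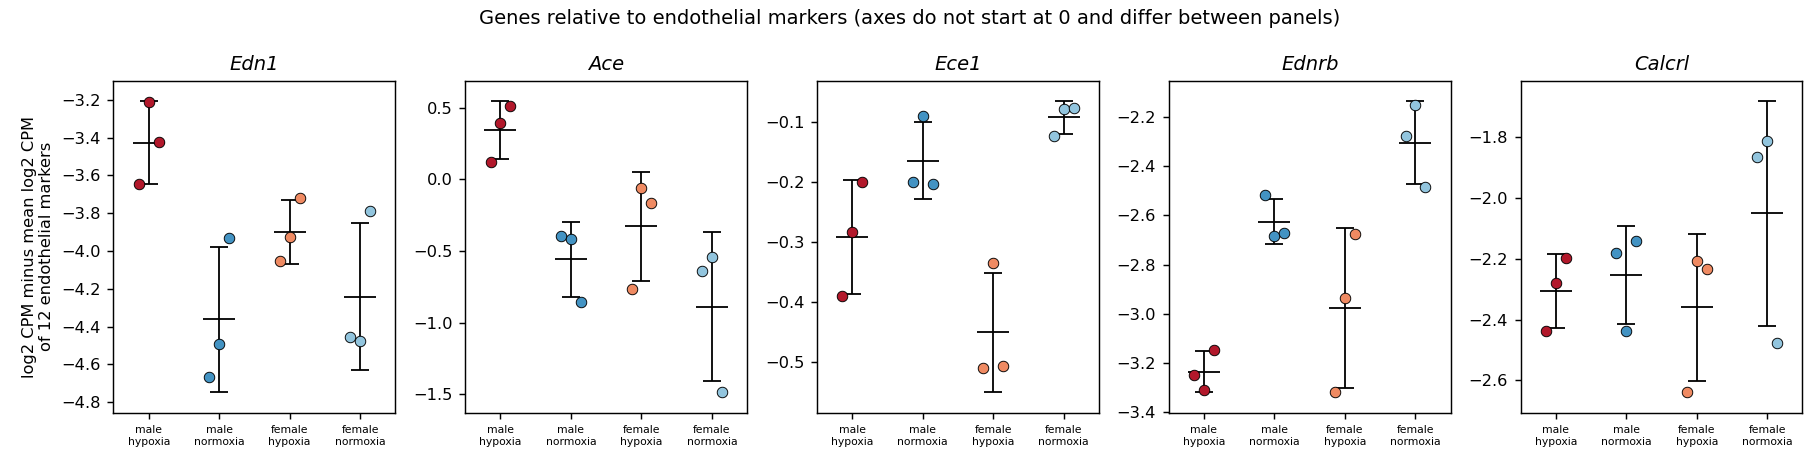
Log2 CPM of each gene minus the mean log2 CPM of 12 endothelial markers in every library (points), with group mean and SD (bars, n = 3 per group), on axes that do not start at 0. Edn1 and Ace have higher group means in hypoxia than in normoxia in each sex, and Ednrb and Ece1 have lower ones.

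Other genes of the same peptide systems were taken as 4 lists with 51 names, of which 50 were in the table and 29 passed the filter on low counts. Averaged over sexes 6 were higher and 6 lower in hypoxia, beside the 27.9% of all genes that passed, and their median log2 fold change was 0.12, beside -0.01 for all genes. The endothelin list had 0 higher and 2 lower of 3 tested, the renin-angiotensin list 1 higher and 3 lower of 14, the adrenomedullin and calcitonin gene-related peptide list 4 higher and 1 lower of 7, and the kallikrein-kinin list 1 higher and 0 lower of 5. By edgeR, 0 of the 29 passed the test of the female minus male effect (smallest adjusted p = 0.545).

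In the endothelin list, which leaves out the 9 genes, both genes that passed encode peptidases and both were lower. Mme encodes neprilysin, which degrades endothelin, natriuretic peptides and bradykinin. It was at 3.71, 3.91 and 3.31 CPM in hypoxic males, against 9.37, 7.996 and 7.64 CPM in normoxic males, and at 4.14, 2.85 and 3.64 CPM in hypoxic females, against 6.06, 5.26 and 3.64 CPM in normoxic females. The male groups were widely separated and the female groups overlapped. Its log2 fold change was -0.84 ± 0.15 averaged over sexes (adjusted p = 0.0029), -1.19 ± 0.21 in males (adjusted p = 0.0062) and -0.49 ± 0.21 in females (adjusted p = 0.183). Ece2, a second converting enzyme, averaged 4.85 ± 0.68 CPM in hypoxic males, 6.15 ± 0.49 CPM in normoxic males, 3.91 ± 0.97 CPM in hypoxic females and 6.51 ± 0.84 CPM in normoxic females (SD, n = 3 each), with an averaged log2 fold change of -0.54 ± 0.14 (adjusted p = 0.0185).

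In the renin-angiotensin list the gene that rose was Enpep, encoding the aminopeptidase that degrades angiotensin II (0.48 ± 0.15, adjusted p = 0.0311). Among those that fell were Nr3c2, encoding the mineralocorticoid receptor (-0.58 ± 0.16, adjusted p = 0.0213), and Prep, encoding prolyl endopeptidase (-0.20 ± 0.06, adjusted p = 0.0357). With each of the 12 libraries left out in turn, Enpep lost the call in 7 fits, Nr3c2 in 4 and Prep in 8. Atp6ap2, which encodes the (pro)renin receptor, passed in males alone (0.35 ± 0.09, adjusted p = 0.0305), with -0.10 ± 0.09 in females (adjusted p = 0.532) and no tested difference between the sexes (adjusted p = 0.641).

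The RAMP partners of Calcrl moved in opposite directions. Ramp2, which with Calcrl forms the main adrenomedullin receptor, was at 69.8, 66.1 and 63.1 CPM in hypoxic males, against 49.6, 56.4 and 48.0 CPM in normoxic males, and at 58.4, 67.0 and 69.5 CPM in hypoxic females, against 48.3, 51.8 and 57.8 CPM in normoxic females. Ramp1, which gives Calcrl its preference for calcitonin gene-related peptide, was at 2.98, 2.62 and 2.75 CPM in hypoxic males, against 6.85, 11.9 and 6.80 CPM in normoxic males. It was at 2.78, 1.97 and 3.64 CPM in hypoxic females, against 4.06, 9.71 and 4.32 CPM in normoxic females. Neither gene overlapped between hypoxia and normoxia in either sex. The averaged log2 fold change was 0.34 ± 0.07 for Ramp2 (adjusted p = 0.0065) and -1.36 ± 0.26 for Ramp1 (adjusted p = 0.0037).

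**Figure D4:**
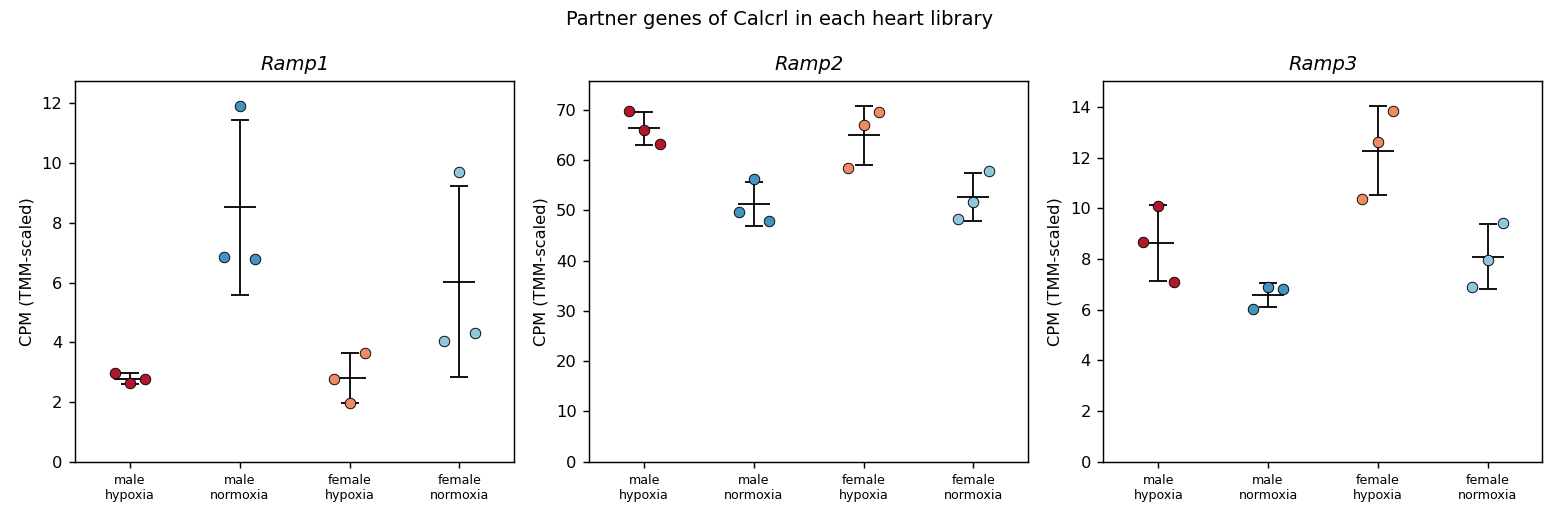
CPM of Ramp1, Ramp2 and Ramp3 in every library (points), with the group mean and SD (bars, n = 3 per group), on panels with different scales that start at 0. Ramp1 lies lower in hypoxia than in normoxia without overlap in both sexes, and Ramp2 lies higher.

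Ramp3, the partner in a second adrenomedullin receptor, averaged 8.62 ± 1.51 CPM in hypoxic males, 6.58 ± 0.47 CPM in normoxic males, 12.3 ± 1.77 CPM in hypoxic females and 8.09 ± 1.28 CPM in normoxic females (SD, n = 3 each), with an averaged log2 fold change of 0.49 ± 0.12 (adjusted p = 0.0127). The log2 TPM ratio of Ramp3 to Ramp2 was -3.42 ± 0.26 in hypoxic males, -3.65 ± 0.19 in normoxic males, -3.13 ± 0.14 in hypoxic females and -3.24 ± 0.02 in normoxic females (SD, n = 3 each). Its hypoxia minus normoxia difference of 0.17 did not pass (adjusted p = 0.135 over 3 ratios, exact permutation within sex). Gpr182, another gene of the adrenomedullin list, was also higher (0.59 ± 0.14, adjusted p = 0.0099). So was Pam, the enzyme that amidates adrenomedullin and other peptides (0.32 ± 0.10, adjusted p = 0.0296). The log2 fold change of Pam was 0.70 ± 0.14 in males (adjusted p = 0.0094) and -0.05 ± 0.14 in females (adjusted p = 0.857), and the difference between these effects did not pass (adjusted p = 0.545). Its averaged call was lost without male hypoxia libraries 2 and 3 (0.17, adjusted p = 0.303) and on leaving out any one of 6 of the 12 libraries. Male hypoxia libraries 2 and 3 held 843 and 806 CPM of Pam, against 610 CPM in male hypoxia library 1. Normoxic males held 434 to 487 CPM and females 514 to 642 CPM. The part of atrial transcripts in these values was not tested.

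Cpm, encoding carboxypeptidase M, which trims kinins and other peptides at the cell surface, was the gene of the 4 lists that passed in both sexes. It was at 14.6, 13.6 and 19.3 CPM in hypoxic males, against 9.75, 9.14 and 7.84 CPM in normoxic males, and at 15.2, 23.1 and 23.0 CPM in hypoxic females, against 9.08, 9.30 and 10.4 CPM in normoxic females. The groups were separate in both sexes. The log2 fold change was 0.96 ± 0.13 averaged over sexes (adjusted p = 0.00079), 0.83 ± 0.19 in males (adjusted p = 0.0147) and 1.09 ± 0.19 in females (adjusted p = 0.0116). Without male hypoxia libraries 2 and 3 the averaged contrast called fewer of the 29 genes, and also fewer of all genes. In that fit male hypoxia library 1 stands alone for its group.

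**Figure D5:**
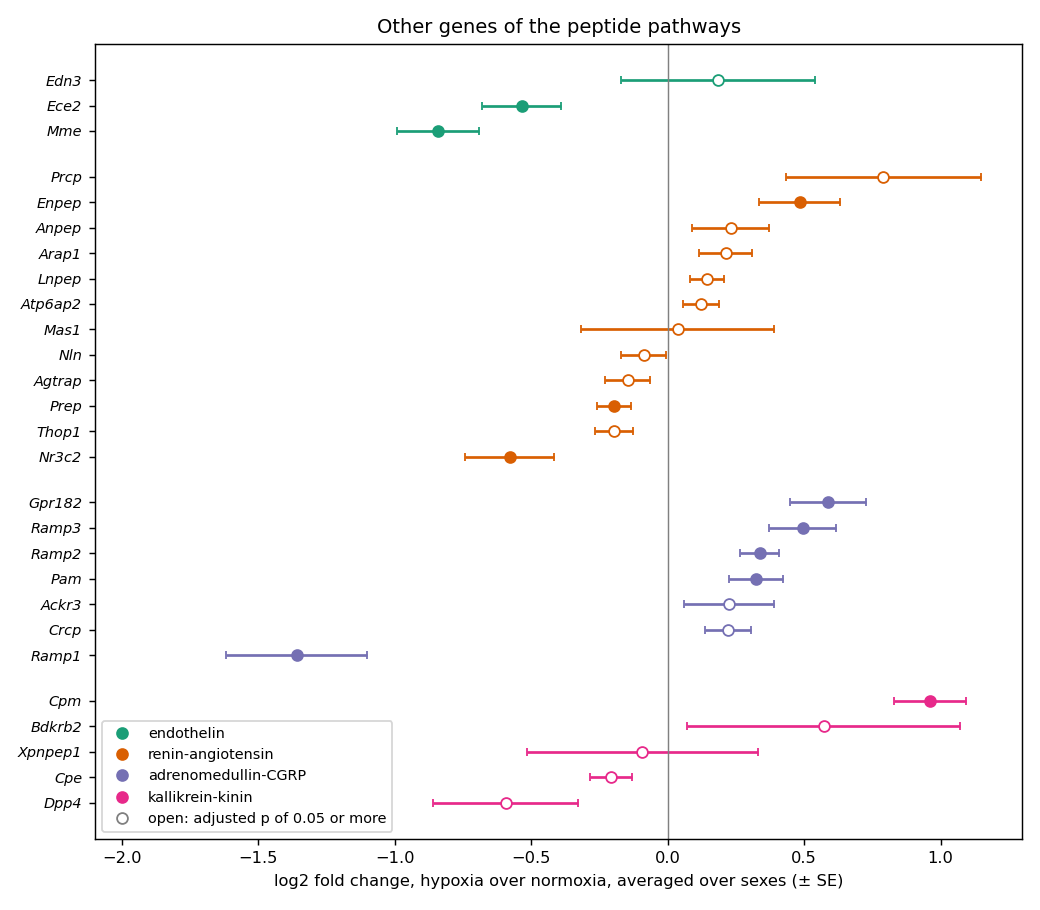
Averaged log2 fold change of hypoxia over normoxia with its SE for tested genes of the 4 lists, without Cma1, whose counts were mostly 0, from edgeR's quasi-likelihood fit with filled circles for an adjusted p under 0.05. Ramp1 lies lowest at -1.36 and Cpm highest at 0.96.

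For each of the 9 genes, the 2 genes with the most similar profile were sought among 10953 tested genes, by Pearson's r of log2 CPM over the 12 libraries. These values are descriptions, and the 12 points share the split into hypoxia and normoxia libraries. The closest to Edn1 was Npr1, encoding a natriuretic peptide receptor (r = 0.978), followed by Mospd2 (0.965). The closest to Ace were Igf1, encoding insulin-like growth factor 1 (0.977), and Ap1s2 (0.976). Ece1 went with Tmem43 (0.9705) and with Adgrl4, an endothelial adhesion receptor gene (0.968), and Agtr1a with Cdnf (0.961) and Paqr9 (0.960).

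For the genes that did not pass the averaged test, the closest matches had r from 0.885 to 0.959. Ednra was closest to Actn2, encoding the alpha-actinin of the muscle Z-disc (0.906), and to Slc16a1, a lactate and pyruvate transporter gene (0.888). Ednrb was closest to D10Wsu102e (0.915) and Zkscan1 (0.882), Agt to Ahdc1 (0.885) and Fiz1 (0.881), Adm to Mcrip1 (0.959) and Ccn5 (0.893), and Calcrl to Sept7 (0.938) and Myef2 (0.937). Within the 9, Edn1 and Ece1 had the highest r (0.879), and Ece1 and Agtr1a the lowest (-0.838).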

How the data were processed

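RNA was sequenced from 12 libraries of heart ventricle, 3 for each sex and oxygen level. Library preparation kept the strand of the mRNA, per the labels' protocols, and per the submitters' processing notes FastQC and Salmon were used with GRCm39 as the build. Versions and the strand setting are not given in the sources used here. Estimated counts for each gene are deposited, per the file headers, not scaled from abundance, together with TPM and an average transcript length in bases, both as the authors made them. TPM summed to 889905 to 926060 per library. The number of unassigned columns was 0.

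Estimated counts were rounded. Symbols were found for 99.3% of 39210 genes. edgeR 4.0.16 (R 4.3.3) with filterByExpr (13960 genes left), TMM factors and a group-means model over all 12 libraries (8 residual degrees of freedom) gave two-sided quasi-likelihood tests. Adjusted p-values are Benjamini-Hochberg values over all genes tested, and standard errors were derived from the fold change and F. Ratios used TPM plus 0.1 and an exact permutation test within sex. The procedure was tested on simulated data. RefSeq and GENCODE sequences belong to another build than the counts and were matched by symbol. Genes on the opposite strand overlap Edn1, Ace and Ednra, and those with values (for Ace and Ednra) reached at most 0.329 CPM.

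Of the other genes, 1 pathway gene and 1 ratio enter the counts and adjustments but are not reported here. All 9 members were named, with other pathway genes that passed in a hypoxia contrast, at most 5 a list, and the 2 genes most similar to each member, among those averaging 1 or more in log2 CPM and not predicted. Members, lists, tests and most alternatives were chosen with earlier results of these data known. Alternatives were DESeq2 1.42.0, limma 3.58.1 (voom, and trend on log2 TPM), RLE factors, other filters, a length offset, a replicate block, only the libraries compared, and libraries left out. Leaving out 3 libraries together was chosen after seeing the data.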

Additional observations from a re-analysis of the deposited data

How the results depend on the processing

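Values below are those of the alternative, and the cause of a change was not tested unless stated. Leaving out male hypoxia libraries 2 and 3 lowered the number of the 9 genes called to 1 (averaged, Ace), 0 (males) and 1 (females), and leaving out female normoxia library 3 as well gave 3, 0 and 1. The other pathway genes called averaged over sexes were then 3 and 7 in place of 12. All genes called were then 1295 and 2329 averaged, 66 and 176 in males, 457 in females with the 2 libraries out, 7 and 6 for the female minus male effect, and 12 with all 3 out for females against males in hypoxia. These fits have fewer samples. Relative to endothelial markers Ace was at 0.62 and Edn1 at 0.53 without the 2 libraries, Ece1 at -0.13 against the median marker, and Edn1 at 0.53 against Pecam1, Cdh5 and Tie1 alone, none past the threshold. DESeq2 called 4 of the 9 genes in males, beside 1517 of all genes higher and 1388 lower. A fit to only the libraries compared called 5 of the 9 in males, beside 1543 of all genes higher and 1294 lower. That fit, TPM and the length offset each called 0 of the 9 genes in females, where TPM called 539 of all genes higher and 36 lower. Over all genes DESeq2 called 1667 in females, 65 for the female minus male effect, and 184 in hypoxia and 58 in normoxia between the sexes. Fits to only the libraries compared called 40 in females, and 12 in hypoxia and 6 in normoxia between the sexes. The length offset called 1263 in males, 362 in females and 13 between the sexes in hypoxia. TPM called 3737 in males and 3 for the female minus male effect, for which limma voom called 2 and the unfiltered fit 6. On TPM 93.9% of averaged calls were higher, against 53.9% in the fit to counts, beside a median shift of 0.29.

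The fold changes that reversed did not pass in any fit, except Prep, which passed from counts. On TPM Ednra was at 0.26 (averaged) and 0.025 (females), Ednrb at 0.18 (averaged), 0.31 (males) and 0.048 (females), and Prep at 0.11, each below the median shift of all genes in the same comparison (0.29 averaged, 0.39 in males and 0.19 in females). With the length offset Adm was at -0.076 in females. Ednra was at 0.056 averaged without male hypoxia libraries 2 and 3, and at 0.16 averaged and 0.064 in females without female normoxia library 3 as well, where Agt was at 0.0084 in females. With each library left out in turn, Agt ranged from -0.032 to 0.36 averaged and from -0.70 to 0.0089 in females, Ednra from -0.19 to 0.085 and from -0.49 to 0.064, Ednrb from -0.21 to 0.022 and from -0.35 to 0.13, and the Ednra to Ednrb ratio from -0.18 to 0.23. The 9 genes had 3 to 5 calls averaged, 1 to 5 in males and 0 to 3 in females. All genes called ranged from 2685 to 4635 averaged, 877 to 3036 in males and 55 to 2081 in females. Those calls ranged from 1 to 5 for the female minus male effect, and from 9 to 40 in hypoxia and 5 to 10 in normoxia between the sexes. The averaged rise of Ace passed in every alternative run, from 1.06 to 1.59.

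Replicate numbers were not taken to pair samples, since 1 of 18 same-numbered pairs had a correlation of deviations above 0.1. With the replicate block 4 of the 9 genes passed averaged, 3 in males, where Ece1 was at 0.40 (adjusted p = 0.0232), and 2 in females. Of all genes the block called 2067 higher and 1864 lower averaged, 1203 and 1065 in males, and 529 and 271 in females. Genes called between the sexes in normoxia were 6 with the block. Depth limits Edn1, Agt and Adm most, with 42 to 240, 25 to 180 and 99 to 231 estimated counts per library.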
